A study of Mus musculus with 12 samples.

Results

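The prostaglandin synthases described here are 5 genes of the prostaglandin E2 pathway, taken by symbol from a table of 23636 gene symbols: PTGS1, PTGS2, PTGES, PTGES2 and PTGES3. The symbols are printed in capitals as the table gives them, and the genes are those of the mouse. The RNA came from CT26, a mouse colon carcinoma cell line grown in culture. The 4 groups of 3 libraries were untreated cells (no treatment) and cells given CX3CL1 (2 µg/ml), IFN-γ (100 ng/ml) or both agents, for 8 hours. The study's results text describes IFN-γ and TNF-α given before CX3CL1, whereas its legend and the labels name no TNF-α. The labels do not give the order in which both agents were added. CX3CL1 is a chemokine and IFN-γ an inflammatory cytokine, both added as protein. The labels call the libraries of a group biological replicates and do not say whether they were separate cultures, so p-values measure the spread between these libraries. All groups are 1 cell line.

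Prostaglandins are made from arachidonic acid, which phospholipases release from membranes. The cyclooxygenases PTGS1 (COX-1) and PTGS2 (COX-2) turn arachidonic acid into the intermediate PGH2, and the prostaglandin E synthases PTGES (mPGES-1), PTGES2 (mPGES-2) and PTGES3 (cytosolic PGE synthase) can turn PGH2 into PGE2. PTGS1 is classically described as constitutive and PTGS2 as inducible by cytokines, and PTGS2 is known for its high levels in many colorectal tumours. The mRNAs of these enzymes were measured here; neither protein nor PGE2 was.

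Levels are given in TPM (a share of each library's total, corrected for transcript length), so levels of different genes can be set side by side. TPM carry no read depth, and the depth of each library is unknown here. Differences are log2 fold changes of TPM + 1, tested with limma in the 11878 genes that averaged 0.2 TPM or more, and a gene was called where its Benjamini-Hochberg adjusted p was under 0.05. All 5 synthases passed that filter. With 3 libraries on each side, the smallest p of an exact permutation test (two-sided) is 0.1, so the calls depend on limma's pooling of the spread across genes.

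The libraries of a group were alike, with correlations of log2(TPM + 1) from 0.984 to 0.996, and CX3CL1 replicate 2 was the least alike of its group. The colon epithelial markers EPCAM and LGR5 were listed at 0 in all 12 libraries and CDH1 was at most 0.043 TPM, while KRT18 ran from 18.4 to 53.6 TPM and the mesenchymal marker VIM from 1684 to 4831 TPM. The 7 leukocyte markers used summed to 8.28 to 27.5 TPM, nearly all of it CD68, with PTPRC, ADGRE1 and CSF1R at or near 0 and CD3E listed at 0. Endothelial markers summed to at most 0.0725 TPM and mast cell and platelet markers to at most 0.897 TPM. CX3CR1, the receptor for CX3CL1, was listed at 0 to 0.154 TPM, below the filter. That is a value of mRNA, whereas the study reported high CX3CR1 on cultured CT26 cells by flow cytometry, which measures protein. The mRNA level therefore does not show that the receptor was absent. A listed 0 can be a failed estimate.

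PTGS2 was the only synthase that passed the test for CX3CL1 alone. It lies on the plus strand of chromosome 1 (chr1:150100031-150108227, GRCm38, the assembly that mm10 stands for) and its longest annotated transcript has 10 exons. Its level was 169, 110 and 126 TPM in the 3 untreated libraries and 318, 365 and 286 TPM after CX3CL1. It was 199, 192 and 197 TPM after IFN-γ and 468, 362 and 393 TPM after CX3CL1 and IFN-γ together. All 6 libraries treated with CX3CL1, with or without IFN-γ, stood above all 6 that were not. Untreated and IFN-γ libraries did not overlap either, whereas CX3CL1 libraries overlapped those given both.

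After CX3CL1 alone, PTGS2 rose by 1.27 on the log2 scale (standard error 0.15, n = 3 against 3, adjusted p = 0.00058 by limma), a 2.41-fold difference with a 95% confidence interval of 1.93 to 3.03. It was the only synthase called higher in that comparison, 1 of 5, where 1.78% of all genes tested were called higher. The call held in all 20 alternative fits, with log2 fold changes from 1.14 to 1.44 when 1 library was left out. On top of IFN-γ, CX3CL1 raised PTGS2 by 1.04 on the log2 scale (standard error 0.15, adjusted p = 0.00904), again 1 of 5 synthases, beside 0.345% of all genes called higher. The second call was lost without IFN-γ replicate 2 or CX3CL1+IFN-γ replicate 1, with adjusted p from 0.051 to 0.0567. Averaged over both backgrounds, the CX3CL1 effect on PTGS2 was 1.16 (standard error 0.11, adjusted p = 6.7e-05, n = 6 against 6), and it was called in all 19 alternatives.

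IFN-γ moved PTGS2 less. Against no treatment it rose by 0.56 on the log2 scale (standard error 0.15, adjusted p = 0.0386), a 1.47-fold rise with an interval of 1.18 to 1.85. That call was lost with no filter on low TPM and on leaving out any of 6 libraries (No treatment replicates 2 and 3, IFN-γ replicates 1, 2 and 3, and CX3CL1+IFN-γ replicate 3), with adjusted p from 0.0556 to 0.149. In cells that also had CX3CL1 the log2 fold change for adding IFN-γ was 0.33 (95% confidence interval 0.01 to 0.66, adjusted p = 0.27), which did not pass the test. Averaged over both backgrounds, IFN-γ raised PTGS2 by 0.45 (standard error 0.11, adjusted p = 0.012), a call that held in all 19 alternatives.

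The order of PTGS2 levels was therefore no treatment, IFN-γ, CX3CL1, and both agents. IFN-γ stood below CX3CL1, at a log2 difference of -0.71 (standard error 0.15, adjusted p = 0.0188), lost without CX3CL1 replicate 2 or any IFN-γ library (adjusted p from 0.0574 to 0.0708), and the last pair in the order, whose libraries overlapped, did not differ by a call. With both agents PTGS2 was 3.04-fold the untreated level (interval 2.43 to 3.81, adjusted p = 1.2e-05, all 20 alternatives). Among all 23636 symbols, ordered by mean TPM, PTGS2 went from place 1247 in untreated cells to 378 with both agents.

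**Figure D1:**
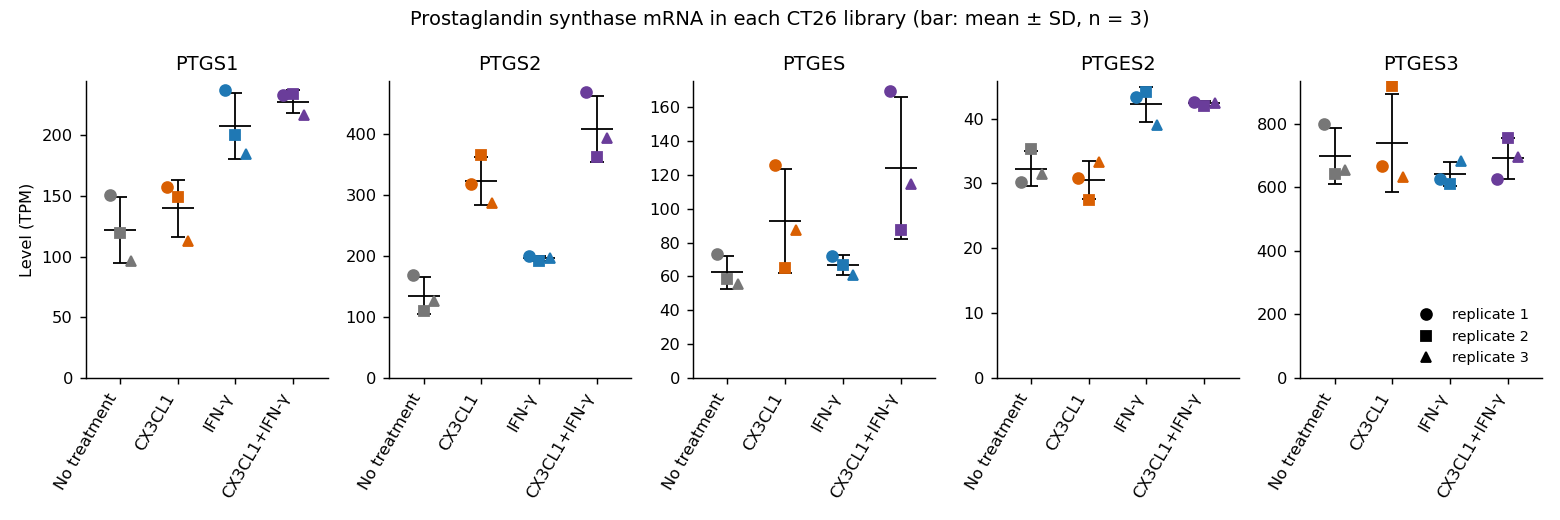
Level of each prostaglandin synthase mRNA in TPM (vertical axes, each starting at 0) in the 12 libraries, with groups on the horizontal axis, 1 symbol shape per replicate number, and bars for the mean ± SD (n = 3). PTGS2 is highest in the CX3CL1 groups, PTGS1 and PTGES2 in the IFN-γ groups, and the PTGES3 groups overlap between 612 and 918 TPM.

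PTGS1, the constitutive cyclooxygenase by textbook account, followed IFN-γ and not CX3CL1 in its calls. The gene lies on chromosome 2 (chr2:36230426-36252272, plus strand, GRCm38), with 11 exons in its longest transcript. Its level was 151, 119 and 96.2 TPM without treatment and 157, 149 and 113 TPM after CX3CL1. It was 238, 200.1 and 185 TPM after IFN-γ and 233, 234 and 217 TPM with both agents. Every library with IFN-γ stood above every library without it.

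Against no treatment, IFN-γ raised PTGS1 by 0.78 on the log2 scale (standard error 0.16, adjusted p = 0.01), a 1.71-fold rise with an interval of 1.34 to 2.19. The call was lost without No treatment replicate 3 or IFN-γ replicate 1 (adjusted p from 0.0507 to 0.0546). PTGS1, PTGS2 and PTGES2 made 3 of 5 synthases higher after IFN-γ, where 5.91% of all genes were called higher. On top of CX3CL1, IFN-γ raised PTGS1 by 0.72 (standard error 0.16, adjusted p = 0.0252), and PTGS1 and PTGES2 made 2 of 5, beside 3.76% of all genes. The PTGS1 call on top of CX3CL1 was lost with no filter and without CX3CL1 replicate 3 or any CX3CL1+IFN-γ library (adjusted p from 0.0622 to 0.0943 for the libraries left out). Averaged over both backgrounds, the IFN-γ effect on PTGS1 was 0.75 (standard error 0.12, adjusted p = 0.00071), called in all 19 alternatives, and 3 of 5 synthases were higher in that average, beside 12.3% of all genes.

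For CX3CL1, the PTGS1 log2 fold change was 0.20 against no treatment (95% confidence interval -0.15 to 0.56, adjusted p = 1) and 0.14 on top of IFN-γ (interval -0.21 to 0.50, adjusted p = 0.975). Neither passed the test, and the intervals leave room for a change of up to 1.47-fold. The order of PTGS1 levels was no treatment, CX3CL1, IFN-γ and both, and no neighbours in that order differed by a call. IFN-γ against CX3CL1 gave 0.57 (standard error 0.16, adjusted p = 0.0666), which did not pass the test, with no overlap between the groups. With the replicate number as a block, the adjusted p of that comparison was 0.00513, and it was 0.0438 without No treatment replicate 1. With both agents PTGS1 was 1.89-fold the untreated level (interval 1.48 to 2.42, adjusted p = 0.00204, all 20 alternatives).

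The balance of the cyclooxygenases differed between the groups. The ratio of PTGS2 to PTGS1 in TPM was 1.12, 0.92 and 1.31 in untreated libraries, and 0.839, 0.959 and 1.06 after IFN-γ. It was 2.02, 2.45 and 2.53 after CX3CL1, and 2.01, 1.55 and 1.81 with both agents. The 6 libraries with CX3CL1 had ratios above 1.5 and the other 6 below. Summed over both genes, cyclooxygenase mRNA was 222 to 319 TPM without treatment, 399 to 514 TPM after CX3CL1, 382 to 437 TPM after IFN-γ and 595 to 701 TPM with both. The sums of the groups given 1 agent overlapped, although PTGS2 made up more of the sum after CX3CL1. These ratios and sums are a description with no test.

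**Figure D2:**
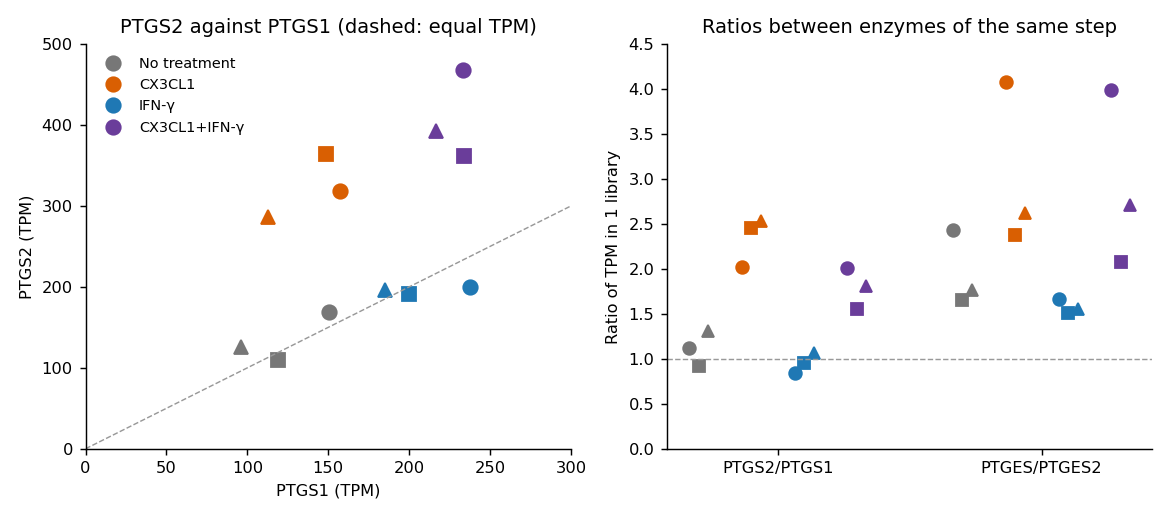
Left, PTGS2 against PTGS1 in TPM in each of the 12 libraries, with the line of equal levels dashed; right, the ratios PTGS2/PTGS1 and PTGES/PTGES2 within each library, with colours for groups and shapes for replicate numbers. Libraries with CX3CL1 lie well above the dashed line, at PTGS2/PTGS1 ratios of 1.55 to 2.53 against 0.839 to 1.31 without it.

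PTGES, the microsomal synthase that is classically induced together with PTGS2, was highest with both agents, and its replicates spread widely. It lies on the minus strand of chromosome 2 (chr2:30889471-30929863, GRCm38), with 3 exons in its longest transcript. Its level was 73.3, 58.4 and 55.5 TPM without treatment and 126, 65.3 and 87.2 TPM after CX3CL1. It was 72.4, 66.8 and 60.6 TPM after IFN-γ and 169.7, 87.4 and 115 TPM with both agents. In each of the 4 groups replicate 1 was the highest, and in both CX3CL1 groups replicate 2 was the lowest. The leukocyte marker CD68 was also highest in replicate 1 of each group (16.2, 20.02, 19.7 and 26.98 TPM, against 7.95 to 11.6 TPM in the other 8 libraries), in libraries where LYZ2 was at most 1.86 TPM and the remaining leukocyte markers were at or near 0, and its part in the PTGES levels was not tested.

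With both agents against no treatment, PTGES rose by 0.94 on the log2 scale (standard error 0.24, adjusted p = 0.0235), a 1.91-fold difference with an interval of 1.33 to 2.76. The call was lost with no filter and without No treatment replicates 2 or 3 or CX3CL1+IFN-γ replicates 1 or 3 (adjusted p from 0.0629 to 0.0962 for the libraries left out). It made PTGES the fourth of 4 synthases called higher in that comparison, beside 8.21% of all genes. CX3CL1 on top of IFN-γ gave 0.84 (95% confidence interval 0.31 to 1.36, adjusted p = 0.413) with no overlap between the groups. With the replicate number as a block its adjusted p was 0.0303, 2 of 5 synthases were then called higher, and the genes called over the whole table went from 43 to 95. CX3CL1 alone gave a 1.44-fold difference (interval 0.998 to 2.07, adjusted p = 0.624) with overlapping groups.

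The CX3CL1 effect on PTGES averaged over both backgrounds was 0.68 (standard error 0.17, adjusted p = 0.0622), just outside the threshold. It passed with the replicate number as a block (adjusted p = 0.00374), with median-ratio scaling (0.0408), without CX3CL1 replicate 2 (0.0265) and without CX3CL1+IFN-γ replicate 2 (0.0229). In the fit as reported, 1 of 5 synthases (PTGS2) was called for CX3CL1 on average, beside 2.21% of all genes called higher. For IFN-γ, the averaged PTGES effect was 0.26 (interval -0.12 to 0.63, adjusted p = 0.339). Neighbours in the order of PTGES levels (no treatment, IFN-γ, CX3CL1, both) did not differ by a call.

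PTGES2, the second microsomal PGE synthase, changed little in size but with a narrow spread. It lies on chromosome 2 (chr2:32395896-32405772, plus strand, GRCm38), with 7 exons in its longest transcript. Its level was 30.1, 35.3 and 31.4 TPM without treatment and 30.9, 27.4 and 33.3 TPM after CX3CL1. It was 43.4, 44.1 and 39.05 TPM after IFN-γ and 42.6, 41.95 and 42.4 TPM with both agents. All 6 libraries with IFN-γ stood above all 6 without it.

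IFN-γ raised PTGES2 by 0.42 on the log2 scale, averaged over both backgrounds (standard error 0.07, adjusted p = 0.00132), a 1.34-fold rise with an interval of 1.2 to 1.49, called in all 19 alternatives. The comparisons of 3 libraries against 3 were less firm. The log2 fold change was 0.38 against no treatment (adjusted p = 0.0361) and 0.46 on top of CX3CL1 (adjusted p = 0.0184), and neither was called with median-ratio scaling or quantile normalization, nor the second with only the libraries compared. The first was also lost without No treatment replicates 1 or 3, any IFN-γ library, or CX3CL1+IFN-γ replicates 2 or 3 (adjusted p from 0.0535 to 0.135), and the second without CX3CL1+IFN-γ replicates 1 or 3 (0.0533 to 0.0788). Against CX3CL1, IFN-γ gave 0.46 (adjusted p = 0.0224), lost with both scalings, with only the libraries compared, and without CX3CL1 replicate 2 or any IFN-γ library (0.0507 to 0.09). In that comparison 1 of 5 synthases was called higher and 1 lower (PTGS2), beside 3.52% and 1.06% of all genes. With both agents against no treatment the log2 fold change was 0.38 (adjusted p = 0.0236), lost with both scalings and without No treatment replicates 1 or 3 or any CX3CL1+IFN-γ library (0.0561 to 0.0887).

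CX3CL1 had no detectable effect on PTGES2, at -0.08 alone (95% confidence interval -0.30 to 0.14) and 0.01 on top of IFN-γ (interval -0.21 to 0.22), and the sign of the second value turned with quantile normalization or without IFN-γ replicate 3. The ratio of PTGES to PTGES2 ran from 1.51 to 1.67 after IFN-γ and from 1.65 to 2.43 without treatment. It ran from 2.38 to 4.08 after CX3CL1 and from 2.08 to 3.99 with both agents, with replicate 1 highest in each group.

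PTGES3 was by far the most abundant of the 5 and was called in no comparison. It encodes p23, which is also a co-chaperone of HSP90, and lies on chromosome 10 (chr10:128058954-128077272, plus strand, GRCm38). Its level was 801, 643 and 654 TPM without treatment and 668, 918 and 634 TPM after CX3CL1. It was 628, 612 and 684 TPM after IFN-γ and 626, 755 and 696 TPM with both agents, so that all groups overlapped. Its log2 fold changes against no treatment were 0.07 for CX3CL1 (95% confidence interval -0.24 to 0.38), -0.12 for IFN-γ (interval -0.43 to 0.19) and -0.01 for both (interval -0.32 to 0.30), and the signs of the first and the last turned in some alternatives. The high value in CX3CL1 replicate 2 sits in the library that was least alike in its group. The mouse genome holds a processed copy, PTGES3-PS (chr6:85843980-85844459), and how shared reads were counted is not given in the sources used here. None of 10 tested HSP90 partners, such as HSP90AB1 (4845 to 6674 TPM) and STIP1, was called by limma in any comparison. Of the 90 tests, 4 had an unadjusted p under 0.05. Over all 11878 genes, a comparison had 273 to 3718 at that p and 0 to 2059 called. With the replicate number as a block, FKBP4 was called higher for IFN-γ against CX3CL1 (adjusted p = 0.0469), where 1222 of all genes were then higher. PPID had an averaged log2 fold change of -0.33 for IFN-γ (adjusted p = 0.0574), which was called lower with the block (0.0362) and in 5 of 19 alternatives in all.

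**Figure D3:**
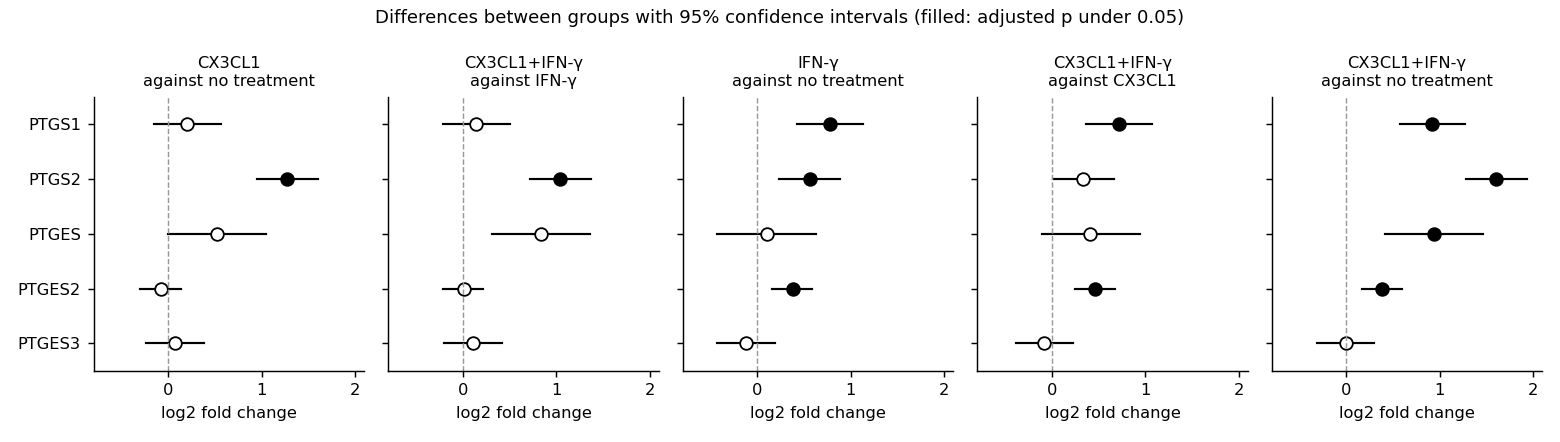
Log2 fold change of TPM + 1 (horizontal axes) with its 95% confidence interval for each synthase in 5 comparisons; filled circles had an adjusted p under 0.05. PTGS2 is filled for CX3CL1 against no treatment at 1.27 and PTGS1 for IFN-γ against no treatment at 0.78, and PTGES3 is unfilled throughout.

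Whether CX3CL1 acts differently in the presence of IFN-γ was asked by the interaction of both agents. The CX3CL1 effect with IFN-γ minus that without was -0.23 for PTGS2 (95% confidence interval -0.69 to 0.23), -0.06 for PTGS1 (interval -0.56 to 0.44) and 0.31 for PTGES (interval -0.43 to 1.06). It was 0.09 for PTGES2 and 0.04 for PTGES3, and the adjusted p was 1 for all 5. Limma called 0 of 11878 genes for this interaction (0%), with 273 at an unadjusted p under 0.05. On the log2 scale the changes of PTGS2 were 1.27 for CX3CL1, 0.56 for IFN-γ and 1.60 for both.

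For the synthases that moved, the 250 bases before the transcription start that RefSeq gives are shown because these genes had calls for different agents. The sequences are from RefSeq on GRCm38.p6, 5′ to 3′ on the strand of the gene, at chr1:150099781-150100030 (PTGS2, plus strand), chr2:36230176-36230425 (PTGS1, plus), chr2:30903298-30903547 (PTGES, minus) and chr2:32395640-32395889 (PTGES2, plus). The RefSeq start of PTGES lies inside the longer span that GENCODE gives the gene, and other starts of PTGES were not searched. Capitals mark the motif matches found.
PTGS2: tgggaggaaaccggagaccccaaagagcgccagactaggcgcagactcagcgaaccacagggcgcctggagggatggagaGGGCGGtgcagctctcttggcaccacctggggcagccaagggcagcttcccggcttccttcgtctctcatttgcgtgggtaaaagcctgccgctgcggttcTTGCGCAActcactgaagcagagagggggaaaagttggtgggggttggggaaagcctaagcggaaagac
PTGS1: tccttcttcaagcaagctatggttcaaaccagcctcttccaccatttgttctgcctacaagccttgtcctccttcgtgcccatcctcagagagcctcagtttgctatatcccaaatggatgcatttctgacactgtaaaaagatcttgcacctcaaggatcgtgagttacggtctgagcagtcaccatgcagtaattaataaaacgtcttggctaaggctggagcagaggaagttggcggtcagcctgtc
PTGES: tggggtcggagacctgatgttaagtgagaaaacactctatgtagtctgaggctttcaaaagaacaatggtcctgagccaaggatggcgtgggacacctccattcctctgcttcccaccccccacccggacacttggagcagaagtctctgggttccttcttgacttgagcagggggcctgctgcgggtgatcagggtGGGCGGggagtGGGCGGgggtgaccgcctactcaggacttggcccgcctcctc
PTGES2: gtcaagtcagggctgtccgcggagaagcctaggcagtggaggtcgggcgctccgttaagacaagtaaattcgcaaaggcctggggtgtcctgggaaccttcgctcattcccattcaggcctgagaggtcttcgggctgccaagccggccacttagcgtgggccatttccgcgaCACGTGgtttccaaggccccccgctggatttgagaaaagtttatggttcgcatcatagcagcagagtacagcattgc

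Both strands of each window were searched for 9 motifs: the GC box GGGCGG, the C/EBP motif TTGCNNAA, the E-box CACGTG, the AP-1 motif TGANTCA, the CRE core TGACGT, the TATA motif TATAAA, the GAS motif TTCNNNGAA, the ISRE and an NF-kB motif. PTGS2 held a GC box from -170 to -165 and a C/EBP match from -69 to -62, counted back from the start, and the second reads the same on both strands. Of 32851 promoters of this length, 32.7% held a GC box and 9.56% a C/EBP match. PTGES held 2 GC boxes, from -53 to -48 and from -42 to -37, and PTGES2 held an E-box from -77 to -72, a motif found in 6.02% of promoters. PTGS1 held none of the 9. The GAS motif, in 7.02% of promoters, the ISRE motif, in 2.98%, and the NF-kB motif, in 7.25%, were not found in these 4 windows. PTGES3, which was called in no comparison and whose window is not shown, held an NF-kB match from -87 to -78. It also held GC boxes from -250 to -245, from -118 to -113 and from -79 to -74. Bases further upstream than these windows, and bases after the start, were not searched for any gene, so a motif not found here can lie outside the window. A match describes letters in the window and not the binding of a factor. In base composition the 4 windows shown ranged from 48% G and C for PTGS1 to 61.6% for PTGS2.

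PTGS2 has noncoding neighbours whose levels were examined after the values of PTGS2 were seen. PTGS2OS starts 68 bases from the PTGS2 start on the opposite strand and was low, at 1.51 to 3.99 TPM. Its level was 2.97, 3.99 and 3.19 TPM after CX3CL1 against 2.36, 2.36 and 2.06 TPM without treatment, groups that did not overlap (log2 fold change 0.42, adjusted p = 0.196). PTGS2OS2, a long noncoding RNA 50816 bases beyond the PTGS2 end on the opposite strand, was 70.6, 57.9 and 48.8 TPM without treatment and 92.4, 131 and 85.4 TPM after CX3CL1. It was 100.2, 98.3 and 91.7 TPM after IFN-γ and 151, 134 and 132 TPM with both agents. The untreated libraries were the lowest and those with both agents the highest, with no overlap of either with the rest.

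PTGS2OS2 was called higher after CX3CL1 (log2 fold change 0.78, adjusted p = 0.0196) and after IFN-γ (0.72, adjusted p = 0.0135). The first call was lost with no filter, with only the libraries compared, and without No treatment replicates 2 or 3 (adjusted p from 0.0836 to 0.125 for the libraries left out), and the second without No treatment replicate 3 or IFN-γ replicate 1 (0.0532 to 0.0794). Averaged, it rose by 0.65 with CX3CL1 (adjusted p = 0.00703) and by 0.58 with IFN-γ (adjusted p = 0.00328), both called in all 19 alternatives. The ratio of PTGS2OS2 to PTGS2 was 0.388 to 0.528 without treatment and 0.466 to 0.513 after IFN-γ, and 0.29 to 0.371 in the libraries with CX3CL1. PLA2G4A, the cytosolic phospholipase that starts 138741 bases from PTGS2, stayed at 102 to 159 TPM over the 12 libraries and was not called in any comparison. The libraries were made with a strand-specific kit, and whether the counting used strand is not given in the sources used here.

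**Figure D4:**
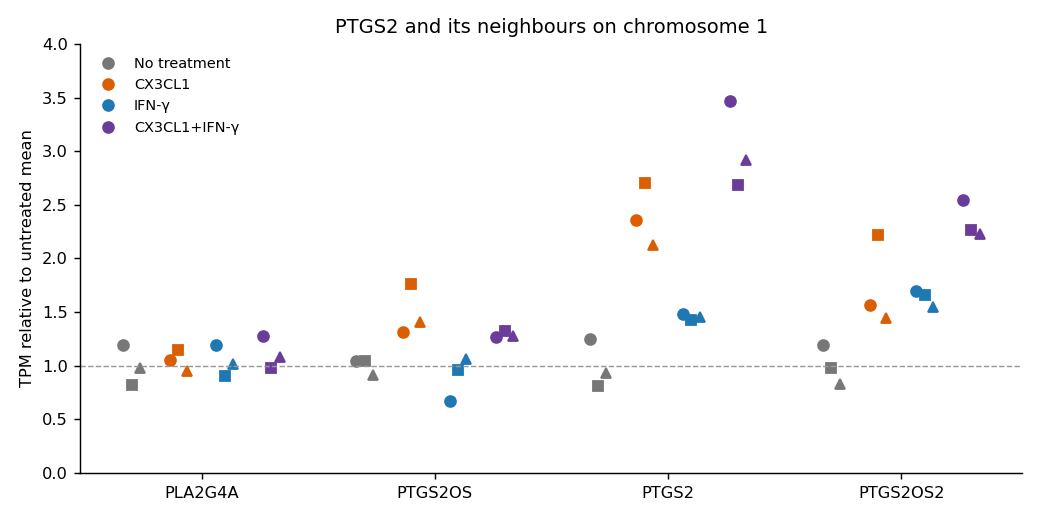
TPM of PTGS2 and 3 neighbours on chromosome 1 divided by each gene's untreated mean (vertical axis, from 0), for the 12 libraries, with colours for groups and shapes for replicate numbers. PTGS2 reaches 2.68 to 3.47 with both agents and PTGS2OS2 2.23 to 2.55, while PLA2G4A stays between 0.82 and 1.28.

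Genes with a pattern most like each synthase were found by the Pearson correlation of log2(TPM + 1) over the 12 libraries, among 10754 genes of at least 1 TPM on average. These are descriptions, in libraries that share their groups. For PTGS2 the 5 closest were ZFPM2 (r = 0.984), RSBN1, CXCL1, ELL2 and ZFP36L1 (r = 0.961). CXCL1, a neutrophil-attracting chemokine, had means of 4.96 TPM without treatment, 439.5 TPM after CX3CL1, 55.04 TPM after IFN-γ and 1090 TPM with both, the same order of groups as PTGS2 over a far wider range. For PTGES they were STX6 (r = 0.961), CSF3, HK2, FAM20C and NPPB (r = 0.943). CSF3, which encodes the cytokine G-CSF, was listed at 0 in untreated cells and had means of 0.989, 0.215 and 4.52 TPM after CX3CL1, IFN-γ and both.

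For PTGS1 the closest were SLC23A2 (r = 0.969), BDKRB2, GAS7, LHFPL2 and TXNIP (r = 0.951). BDKRB2, a receptor for bradykinin, went from a mean of 3.36 TPM without treatment and 4.83 TPM after CX3CL1 to 8.08 TPM after IFN-γ and 9.62 TPM with both. For PTGES2 they were SMOX (r = 0.981), CDK10, VRK3, KANSL3 and FIZ1 (r = 0.958), each higher on average in both IFN-γ groups than in both others. For PTGES3 they were RPE (r = 0.977), ZBTB41, PHF6, PAIP1 and EFR3A (r = 0.963). Between the synthases themselves, r was 0.785 for PTGS2 and PTGES, 0.750 for PTGS1 and PTGES2, 0.554 for PTGS2 and PTGS1, and 0.176 for PTGS2 and PTGES2.

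Around the synthases, 5 lists of pathway genes (arachidonate release, other terminal synthases, transport and breakdown, receptors, lipoxygenases) held 48 genes of the table, of which 22 were tested. For CX3CL1, limma called none of the 22 alone, on top of IFN-γ or on average (0, 1 and 2 at an unadjusted p under 0.05), with a median averaged log2 fold change of 0.03 beside -0.01 over all genes. Of all 11878 genes, 232, 43 and 302 were called in these comparisons, and 958, 517 and 1309 had such a p. Calls were rare in all genes too, so 0 of 22 does not set these lists apart. For IFN-γ on average, 2 of the 22 were higher and 2 lower, beside 12.3% and 5.08% of all genes, with a median of 0.04 beside 0.04 over all genes. With the replicate number as a block that average gave 5 higher and 3 lower, where 2355 of the 11878 genes were then higher and 1087 lower. Against no treatment IFN-γ gave 0 calls (8 at an unadjusted p under 0.05), where 702 of the 11878 genes were higher and 230 lower, and 2611 had such a p. With the replicate number as a block it gave 3 higher and 3 lower, where 1353 of all genes were higher and 576 lower. On top of CX3CL1, IFN-γ gave 1 higher, where 447 of all genes were higher and 111 lower. With the block it gave 2 higher and 2 lower, where 1035 of all genes were higher and 334 lower.

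Of 9 phospholipases and recycling enzymes tested, none was called for the average of either agent (2 at an unadjusted p under 0.05 for each). Of all 11878 genes, 302 were called for the CX3CL1 average and 2059 for the IFN-γ average, with 1309 and 3718 at such a p. In the blocked fit 3 of the 9 were called for the IFN-γ average, where 3442 of all 11878 genes were called. PLA2G6 (log2 fold change 0.21, adjusted p = 0.0239) and PLA2G2E (0.69, 0.00383) were higher and PLA2G4C (-0.36, 0.00482) lower. PLA2G4A, which supplies arachidonic acid to both cyclooxygenases, had averaged log2 fold changes of 0.09 for CX3CL1 (95% confidence interval -0.14 to 0.32) and 0.07 for IFN-γ (interval -0.16 to 0.30). PLA2G6 was higher with both agents than without treatment (0.38, adjusted p = 0.0438, called in 8 of 20 alternatives, with adjusted p up to 0.17), and ACSL4, which activates arachidonic acid, was lower after IFN-γ than after CX3CL1 (-0.55, adjusted p = 0.0489, called in 7 of 20, with adjusted p up to 0.154). Leaving out any library other than CX3CL1 replicate 2, IFN-γ replicate 1 or CX3CL1+IFN-γ replicate 3 ended the PLA2G6 call, and any other than No treatment replicate 1 or CX3CL1 replicate 3 the ACSL4 call.

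Among the other terminal synthases, PTGDS, which makes PGD2, was lower with IFN-γ. Its level was 5.03, 0.805 and 0.824 TPM without treatment and 5.46, 1.04 and 1.01 TPM after CX3CL1. It was 0.227, 0.0731 and 0.0722 TPM after IFN-γ, and 0.129 TPM in replicate 1 and listed at 0 in the others with both agents. Every library with IFN-γ was below every library without it, and replicate 1 was the highest of each group. Averaged over both backgrounds the log2 difference was -1.39 (standard error 0.33, adjusted p = 0.0112), called in all 19 alternatives. AKR1C18 was also lower (-0.50, adjusted p = 0.0327), a call lost with no filter and without No treatment replicates 1 or 2, CX3CL1 replicate 1, IFN-γ replicate 3 or CX3CL1+IFN-γ replicate 3 (0.0619 to 0.0821 for the libraries left out). Prostacyclin synthase PTGIS was at most 0.497 TPM, thromboxane synthase TBXAS1 at most 0.184 TPM, and HPGDS was listed at 0.

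For transport and breakdown, SLCO2A1, the prostaglandin uptake carrier, was low and rose with IFN-γ. Its level was 0.436, 0.569 and 0.531 TPM without treatment and 0.569, 0.48 and 0.344 TPM after CX3CL1. It was 1.12, 0.907 and 0.737 TPM after IFN-γ and 1.01, 1.22 and 1.06 TPM with both, so the libraries with and without IFN-γ did not overlap (averaged log2 fold change 0.43, standard error 0.08, adjusted p = 0.00175, all 18 alternatives). ABCC4, an exporter of PGE2, ran from 39.9 to 54.6 TPM without IFN-γ and from 52.7 to 83.8 TPM with it (0.41, adjusted p = 0.0494, called in 6 of 19 alternatives), and leaving out any library other than No treatment replicate 1 or CX3CL1 replicate 2 ended that call (0.0508 to 0.118). HPGD, which inactivates PGE2, was listed at 0 in all 12 libraries. Of 9 prostanoid receptors, PTGER1 alone passed the filter, at 0.28 to 1.13 TPM and not called (averaged log2 fold changes of 0.13 for each agent), and the PGE2 receptors PTGER2, PTGER3 and PTGER4 were at most 0.034 TPM. Of 8 lipoxygenase genes 3 were tested, and none was called by limma in any comparison (4 of 27 tests at an unadjusted p under 0.05). Over all 11878 genes, a comparison had 273 to 3718 at that p and 0 to 2059 called. ALOX5AP, which presents arachidonic acid to 5-lipoxygenase, was called higher for the IFN-γ average once the replicate number was a block (0.28, adjusted p = 0.0215, against 0.0717 without the block).

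**Figure D5:**
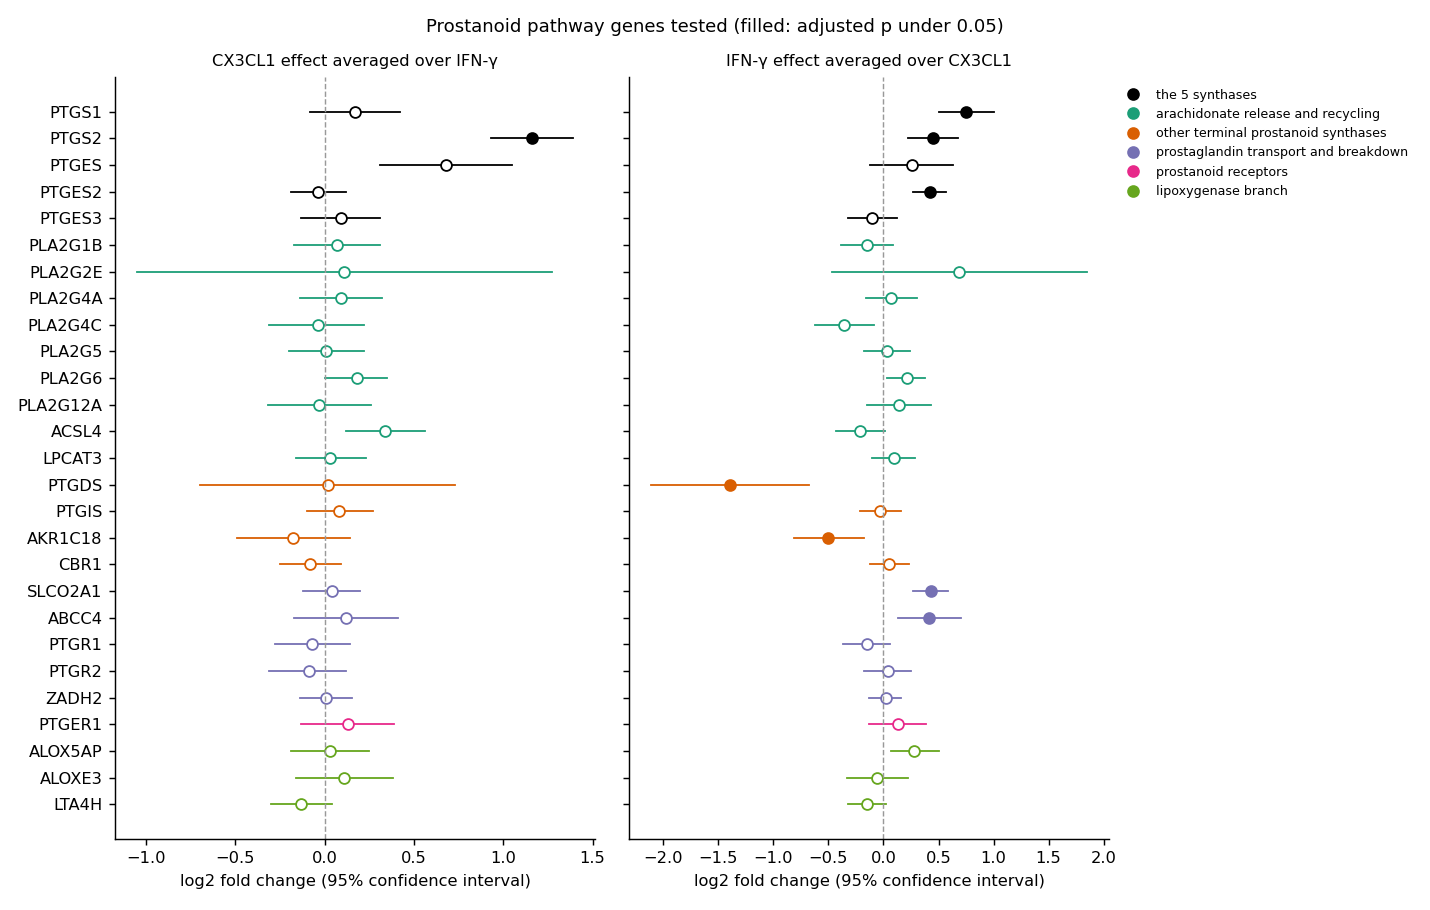
Averaged log2 fold change of TPM + 1 with 95% confidence interval (horizontal axes) for the 5 synthases and the 22 pathway genes tested, for CX3CL1 (left) and IFN-γ (right); filled circles had an adjusted p under 0.05. PTGS2 is the only filled circle on the left at 1.16, and on the right the synthases PTGS1, PTGS2 and PTGES2 and the carriers SLCO2A1 and ABCC4 are filled above 0, and PTGDS (-1.39) and AKR1C18 (-0.50) below 0.

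PTGES belongs to a family of membrane enzymes that includes the MGST genes, and 4 relatives of the members were tested. MGST3 fell from 94.05, 117 and 106 TPM without treatment to 52.4, 53.3 and 36.3 TPM after IFN-γ, and was 72.9, 72.5 and 70.4 TPM after CX3CL1 and 29.2, 39.7 and 24.8 TPM with both. The IFN-γ libraries overlapped those with both agents and no other groups overlapped. The averaged IFN-γ effect was -1.18 (standard error 0.12, adjusted p = 2.5e-05, all 19 alternatives), opposite in sign to those of PTGS1 and PTGES2. The averaged CX3CL1 effect was -0.56 (standard error 0.12, adjusted p = 0.026), called in 9 of 19 alternatives and lost with no filter and on leaving out any library other than No treatment replicate 1, IFN-γ replicate 3 or CX3CL1+IFN-γ replicate 2 (0.0513 to 0.0833). PTGES3L was at most 2.74 TPM and lower with IFN-γ on average (-0.36, adjusted p = 0.0479, called in 7 of 19 alternatives), and leaving out any library other than CX3CL1 replicate 2, IFN-γ replicate 1 or CX3CL1+IFN-γ replicate 1 ended that call (0.0505 to 0.112). Of 8 regulators of the stability of PTGS2 mRNA, ZFP36L1 was called higher for the CX3CL1 average (0.60, adjusted p = 0.00639, all 19 alternatives). ZFP36 was called higher for the IFN-γ average (0.73, adjusted p = 0.0171, all 19 alternatives). Both encode proteins that bind AU-rich mRNA and promote its decay. That made 1 of 8 higher for CX3CL1, beside 2.21% of all genes. With ZFP36L1 it made 2 of 8 higher for IFN-γ, beside 12.3% of all genes, at a list median of -0.01. ZFP36L1 was at 26.9 to 36.7 TPM without treatment, 42.5 to 52.3 TPM after CX3CL1, 37.7 to 42.7 TPM after IFN-γ and 50.05 to 69.5 TPM with both, and its IFN-γ average (0.37, adjusted p = 0.0257) was lost without No treatment replicates 2 or 3, CX3CL1 replicate 3, IFN-γ replicates 1 or 3, or CX3CL1+IFN-γ replicates 1 or 3 (0.0583 to 0.0697).

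Summed mesenchymal and epithelial markers ran lower in the treated groups, with overlap between some groups. The 7 mesenchymal markers summed to 4420 to 5690 TPM without treatment, 3760 to 4470 TPM after CX3CL1, 3170 to 4250 TPM after IFN-γ and 2210 to 3680 TPM with both, and the 8 epithelial markers to 34.5 to 53.8, 25.3 to 37.1, 26 to 29.7 and 18.5 to 24.5 TPM. With both agents against no treatment, COL1A2, COL1A1 and VIM were called lower and DCN, at most 2.00 TPM, higher. That made 3 lower and 1 higher of 6 mesenchymal markers tested, where 442 of the 11878 genes were lower and 975 higher. PDGFRA and PDGFRB were not called. KRT18, the 1 epithelial marker tested, was called lower. Log2 fold changes were -0.70 for COL1A2 and -1.02 for KRT18 (adjusted p = 0.00109 and 0.00171 by limma). VIM (1684 to 4831 TPM) made up most of the mesenchymal sums and KRT18 (18.4 to 53.6 TPM) nearly all of the epithelial sums. Fewer cells of a kind and less RNA per cell cannot be told apart in bulk RNA, and the part of these markers in the levels of the synthases was not tested.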

How the data were processed

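RNA of 12 CT26 libraries was measured by sequencing. Libraries were made from mRNA with a strand-specific kit. Per the submitters' notes and the methods, the authors used STAR 2.7.3a for alignment to mm10 and for gene counts, and DESeq2 1.22.1 for their tests. The deposited values used here are TPM. How counts became TPM, the annotation and the use of strand are not given in the sources used here. The doses and the time are from the study's methods and legends, and the groups from the labels.

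From the TPM, log2(TPM + 1) was fitted with limma 3.58.1 in R 4.3.3 (lmFit, then eBayes with its trend option), over the 11878 genes that averaged 0.2 TPM or more, with all 12 libraries and no block; p-values were two-sided and adjusted by Benjamini-Hochberg within each comparison. The fit was tested on simulated data, with changes in the CX3CL1 group alone and independent noise in each library. Deviations shared by same-numbered libraries were not simulated. No count test was run on TPM. A further leukocyte marker is not reported here. The synthases, the gene lists, the motifs and the alternatives were chosen with earlier results of these data known. Named genes are the 5 synthases, list genes that were called, defining markers and the 5 genes most like each synthase; other list genes were named after their values were seen. Gene coordinates were read from GENCODE vM21 (GRCm38).

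The labels number the replicates alike in each group. Deviations from group means correlated above 0.1 for every same-numbered pair in 4 of 6 pairs of groups (0.22 to 0.649), so IFN-γ against no treatment, IFN-γ against CX3CL1, and the group given both against each agent were taken as paired from the data. Blocked values stand beside the results of synthases and pathway lists whose calls they change. As alternatives, the pseudocount was set to 0.1, the filter was dropped or raised to 1 TPM, TPM were rescaled (median ratios or quantiles), the trend option was turned off, the block was added, and the fit was made on the compared groups alone or without each library in turn.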

Additional observations from a re-analysis of the deposited data

How the results depend on the processing

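Of 17 calls of synthases over the comparisons, 7 held in every alternative; of 336 alternative fits of these calls, 283 kept the call, 53 lost it and 0 reversed. Changing the number of synthases called, CX3CL1 on top of IFN-γ had 1 (0 to 1 on leaving out a library, 2 with the replicate block), IFN-γ against no treatment 3 (0 to 3), and both agents against no treatment 4 (2 to 4). IFN-γ on top of CX3CL1 had 2, and 1 with no filter, either scaling or only the libraries compared (0 to 2 on leaving out a library). IFN-γ against CX3CL1 had 2, and 1 with either scaling or only the libraries compared (0 to 3). CX3CL1 on average had 1, and 2 with median-ratio scaling or the replicate block (1 to 2). The cause of these changes was not tested. Signs turned for changes near 0: PTGES2 for CX3CL1 on top of IFN-γ (0.01, -0.01 with quantile normalization, -0.05 to 0.04 on leaving out a library), PTGES3 for CX3CL1 (-0.10 to 0.17), for IFN-γ on top of CX3CL1 (-0.18 to 0.08) and for both against no treatment (-0.01, 0.03 with quantile normalization, -0.08 to 0.09), and the interactions of PTGES3 (-0.06 to 0.20) and PTGS1 (-0.23 to 0.10).

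Over all genes, the replicate block moved the number called from 232 to 455 for CX3CL1, from 43 to 95 for CX3CL1 on top of IFN-γ, from 932 to 1929 for IFN-γ, from 558 to 1369 for IFN-γ on top of CX3CL1, from 1417 to 2464 for both, from 544 to 1601 for IFN-γ against CX3CL1, from 302 to 628 and from 2059 to 3442 for the averages of CX3CL1 and IFN-γ, and from 0 to 52 for the interaction. Of 18 same-numbered pairs, 16 correlated best with their own number. For groups not taken as paired, the block changed 1 synthase call, the CX3CL1 average of PTGES (adjusted p = 0.00374), and it changed no call of a synthase other than those given here and in the report. Leaving out a library gave 152 to 268, 16 to 54, 530 to 1499, 270 to 668, 924 to 1892, 185 to 583, 198 to 325, 1516 to 2227 and 0 to 11 in the same order. With only the libraries compared, 20, 344 and 252 were called for CX3CL1 on top of IFN-γ, IFN-γ on top of CX3CL1 and IFN-γ against CX3CL1, and the first gave 28 with no filter; quantile normalization gave 1 for the interaction. Scaling moved the split of higher and lower calls, for IFN-γ from 702 and 230 to 640 and 351 (median-ratio) and 556 and 536 (quantile), for IFN-γ on top of CX3CL1 from 447 and 111 to 357 and 187 and to 349 and 228, for both from 975 and 442 to 943 and 584 and to 797 and 888, for IFN-γ against CX3CL1 from 418 and 126 to 303 and 246 and to 278 and 236, and for the IFN-γ average from 1456 and 603 to 1177 and 978 and to 974 and 1283. A fit on only the libraries compared was not run for the averages and the interaction, which need all 4 groups. TPM hold no depth, so counting error was not computed.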
